A study of Mus musculus with 8 samples.

Results

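The genes described here are Myc and the transcription factors of the Max-Mxd network, which share its partner protein or its binding site. They were chosen by name as the 10 genes Myc, Mycn, Max, Mxd1, Mxd3, Mxd4, Mxi1, Mnt, Mlx and Mga, and all 10 were found among the 36811 gene models measured. RNA was sequenced from splenic regulatory T (Treg) cells of C57BL/6 mice aged 12 to 13 weeks. Treg cells suppress immune responses and are defined by the transcription factor Foxp3. The cells were sorted as Foxp3-GFP positive after CD4+ T cell enrichment, and divided by a red reporter of Bach2, a repressor of lymphocyte activation genes, into Bach2-RFP LO and Bach2-RFP HI cells, here called LO and HI. Mice of both groups carried the same alleles, Foxp3EGFP-DTR and Bach2tdRFP/+, so both groups hold 1 Bach2 allele with the reporter and neither comes from animals without the reporters. Each group had 4 libraries, of which F1 and F2 came from females and M1 and M2 from males. By its title the study asked whether the level of Bach2 separates activated from resting Treg cells. The labels do not say how many animals gave a library or whether LO and HI cells came from the same animals.

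Myc is a basic helix-loop-helix leucine zipper protein that binds DNA as a dimer with Max, at the E-box CACGTG, and raises transcription of genes for ribosome synthesis, nucleotide and polyamine synthesis and growth. The Mxd proteins (Mxd1, Mxd3, Mxd4 and Mxi1) and Mnt also dimerise with Max at E-boxes, but recruit the Sin3 histone deacetylase corepressor, while Mga joins Max to a Polycomb complex named PRC1.6. Mlx takes the place of Max for some Mxd proteins and for the glucose-sensing Mondo proteins. In T cells Myc is induced on activation through the antigen receptor and drives growth and metabolic change.

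Expression was given as FPKM, a fragment count scaled by transcript length and by library size, and so allows levels of different genes to be compared. Bach2 had 0.447 to 0.894 FPKM in LO and 8.62 to 20.7 FPKM in HI, and its reporter was the basis of the sort. Foxp3 had 14.7 ± 3.97 FPKM in LO and 14.2 ± 0.783 FPKM in HI (SD, n = 4 each). The summed level of 7 genes that define T and Treg cells was 1812 to 2129.8 FPKM in LO and 1532 to 2056 FPKM in HI. Of these genes Ctla4 and Ikzf2 were higher and Il2ra was lower in LO (differences of 1.30, 1.03 and -1.42 on the log2(FPKM + 1) scale, limma adjusted p = 0.000642, 0.0214 and 0.00149). The table gives no read totals, but steps between low values gave depths of 0.636 to 5.27 times that of the F1 library of HI, the shallowest being M1 of HI and the deepest M2 of LO.

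Myc was lower in LO than in HI cells, and Mxd3, a Max partner that opposes Myc, was higher. Of the 9 network genes that passed the filter on low values (at least 1 FPKM in at least 4 libraries), Mxd3 rose and Myc fell in LO at an adjusted p below 0.05 with limma, and 7 did not pass. Over all 11260 genes tested, 4.65% were higher and 3.64% were lower in LO at that threshold. Mycn did not pass the filter. The difference of LO minus HI in log2(FPKM + 1) had a median of -0.41 over the 9 genes, with 3 above 0, against a median of -0.03 over all genes tested, with 48.0% above 0. The LO libraries lay above all HI libraries for Mxd3 and Mxd4, which was so for 7.9% of all genes tested. They lay below all HI libraries for Myc and Mxd1, which was so for 7.18%.

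**Figure D1:**
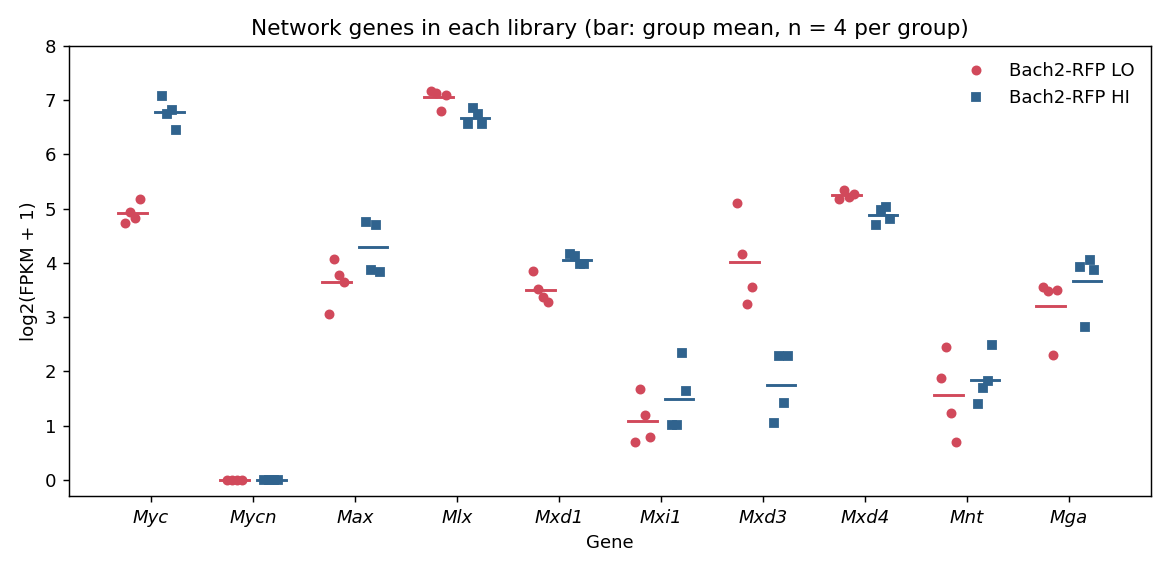
Level of each of the 10 network genes in every library, as log2(FPKM + 1), with Bach2-RFP LO as circles to the left and Bach2-RFP HI as squares to the right for each gene. The horizontal bar is the group mean of 4 libraries. Myc and Mxd1 were lower in every LO library than in any HI library, Mxd3 and Mxd4 were higher, and Mycn was at 0 in all 8 libraries.

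Of the Myc genes, Myc itself (ENSMUSG00000022346) had 25.7, 29.6, 27.5 and 35.1 FPKM in LO F1, F2, M1 and M2, against 135, 107, 112 and 86.4 FPKM in HI F1, F2, M1 and M2. The lowest HI library thus stood well above the highest LO library, and the HI values were the more widely spread. The mean was 29.5 ± 4.09 FPKM in LO and 110.1 ± 19.9 FPKM in HI (SD, n = 4 each), a 3.73-fold higher mean in HI. The difference was -1.86 on the log2(FPKM + 1) scale (SE 0.19, 95% interval -2.27 to -1.44, limma adjusted p = 0.000485). Ranked from the highest level among the 11260 genes tested in the same library, Myc stood at 3517 to 4342 in LO and at 1148 to 1624 in HI. Mycn (ENSMUSG00000037169), a Myc paralog used mainly in embryonic tissue and neural progenitors, was listed at 0 in all 8 libraries. Because these are bulk libraries, fewer Myc-expressing cells and less Myc RNA per cell cannot be told apart.

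Some markers of other cell types were lower in LO, as was Myc. Of 10 B cell markers, 9 were tested, 4 were lower in LO, Cd79a among them, and 1 was higher (Ighm). Their sum was 1121 to 2049.6 FPKM in LO and 955 to 1128 FPKM in HI, and without Ighm it was 79.3 to 106 FPKM in LO and 158 to 265 FPKM in HI. Pax5, the factor that defines B cells, was listed at 0 in every LO library and at 0 to 3.55 FPKM in HI. Of 6 markers of plasmacytoid dendritic cells, 3 were lower in LO (Klk1, Siglech and Ccr9), and their sum was 271 to 367 FPKM in LO and 378 to 624 FPKM in HI. Of 5 CD8 T and NK cell markers, 3 were tested and Eomes was lower in LO, with a sum of 26.0 to 34.2 FPKM in LO and 44.7 to 54.2 FPKM in HI. Of 9 myeloid markers, 8 were tested and Csf1r was lower in LO, while 4 of the 8 differences were above 0 and the sums overlapped, at 101 to 266 FPKM in LO and 140 to 328 FPKM in HI. Their part in the result for Myc was not tested.

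Max (ENSMUSG00000059436), the common partner of Myc, the Mxd proteins, Mnt and Mga, had 7.39, 15.8, 12.8 and 11.5 FPKM in LO F1, F2, M1 and M2, against 25.9, 13.6, 24.9 and 13.2 FPKM in HI F1, F2, M1 and M2. The groups overlapped, since LO F2 was above HI F2 and HI M2. The difference of -0.65 on the log2(FPKM + 1) scale (SE 0.32, 95% interval -1.37 to 0.08, limma adjusted p = 0.299) did not pass the test.

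Mlx (ENSMUSG00000017801), the Max-like partner, was the member with the highest mean in LO. It had 142, 140.0, 111 and 136 FPKM in LO F1, F2, M1 and M2, against 93.3, 114, 106 and 93.8 FPKM in HI F1, F2, M1 and M2. Only M1 of LO reached into the range of HI, where it lay below HI F2. The difference was 0.37 on the log2(FPKM + 1) scale (SE 0.15, 95% interval 0.04 to 0.70), and it did not pass after adjustment over all genes (limma adjusted p = 0.182). The unadjusted p was below 0.05, which was so for 2354 of all 11260 genes tested. An opposite-strand gene, Psmc3ip, shares 385 of the 1999 exon bases of Mlx and was at 5.35 to 16.4 FPKM in LO and 5.98 to 9.56 FPKM in HI.

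Among the Max-binding repressors, Mxd3 (ENSMUSG00000021485) had 33.3, 16.8, 8.48 and 10.8 FPKM in LO F1, F2, M1 and M2, against 1.06, 3.89, 1.67 and 3.89 FPKM in HI F1, F2, M1 and M2. All LO libraries were above all HI libraries, and within LO both female libraries were above both male libraries. The mean was 17.3 ± 11.2 FPKM in LO and 2.62 ± 1.48 FPKM in HI (SD, n = 4 each), a 6.61-fold higher mean in LO. The difference was 2.26 on the log2(FPKM + 1) scale (SE 0.47, 95% interval 1.21 to 3.31, limma adjusted p = 0.0157). Without the shallowest and the deepest library together it was 2.29 with an adjusted p of 0.0671. Mxd3 is known in other mouse cells as the family member whose RNA appears in cells that replicate DNA.

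Prelid1, an opposite-strand neighbour that shares 105 of the 2369 exon bases of Mxd3, is far more abundant. It had 307 ± 27.3 FPKM in LO and 308 ± 12.8 FPKM in HI (SD, n = 4 each), with a difference of -0.01 on the log2(FPKM + 1) scale (limma adjusted p = 0.979). Of 5 plasma cell markers, 4 were tested and Jchain was higher in LO, at 47.6 to 160.3 FPKM in LO and 3.003 to 17.1 FPKM in HI. The other 3 did not pass and lay on both sides of 0, with differences of 1.06 for Sdc1, -0.88 for Mzb1 and -0.13 for Xbp1 on the log2(FPKM + 1) scale. The sum of the list was 159 to 253 FPKM in LO and 121 to 147 FPKM in HI. Tnfrsf17, which defines plasma cells, was listed at 0 in all libraries except M2 of LO, the deepest, where it had 1.11 FPKM. The part of Jchain and Ighm, both higher in LO, in the result for Mxd3 was not tested.

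Mxd4 (ENSMUSG00000037235), a repressor linked to resting and differentiating cells, had 35.04, 39.7, 36.2 and 37.5 FPKM in LO F1, F2, M1 and M2, against 25.02, 30.6, 31.7 and 27.0 FPKM in HI F1, F2, M1 and M2. The groups did not overlap, but the gap between LO F1 and HI M1 was small. The difference of 0.37 on the log2(FPKM + 1) scale (SE 0.17, 95% interval -0.01 to 0.75, limma adjusted p = 0.255) did not pass the test. An antisense gene model, Gm42846, shares 514 of the 8483 exon bases of Mxd4 and was not analysed here.

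Mxd1 (ENSMUSG00000001156), first described as the Max partner that replaces Myc when cells differentiate, had 13.4, 10.5, 9.36 and 8.67 FPKM in LO F1, F2, M1 and M2, against 16.8, 16.4, 14.7 and 14.7 FPKM in HI F1, F2, M1 and M2. Every LO library lay below every HI library, so that Mxd1 and Mxd3 stood on opposite sides. The difference was -0.55 on the log2(FPKM + 1) scale (SE 0.23, 95% interval -1.07 to -0.04), and it did not pass after adjustment (limma adjusted p = 0.202). The unadjusted p was below 0.05, which was so for 2354 of all 11260 genes tested.

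Mxi1 and Mnt were low in both groups. Mxi1 (ENSMUSG00000025025), also called Mxd2, had 0.628, 2.20, 1.28 and 0.731 FPKM in LO F1, F2, M1 and M2, against 1.03, 1.01, 4.04 and 2.13 FPKM in HI F1, F2, M1 and M2. The groups overlapped, and the difference of -0.41 on the log2(FPKM + 1) scale (SE 0.42, 95% interval -1.35 to 0.53, limma adjusted p = 0.645) did not pass. An opposite-strand gene, Gm10197, shares 194 of the 6823 exon bases of Mxi1. It was listed at 0 in every LO library and in F2 and M1 of HI, and at 38.7 and 47.3 FPKM in F1 and M2 of HI. Its part in the values of Mxi1 was not tested. Mnt (ENSMUSG00000000282), a Max-binding repressor found in most tissues, had 2.66, 4.43, 1.36 and 0.619 FPKM in LO F1, F2, M1 and M2, against 1.63, 2.23, 2.56 and 4.60 FPKM in HI F1, F2, M1 and M2. The female libraries were higher in LO and the male libraries lower in LO, and the pooled difference of -0.29 on the log2(FPKM + 1) scale (SE 0.45, 95% interval -1.29 to 0.71, limma adjusted p = 0.775) did not pass.

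Mga (ENSMUSG00000033943), the large member that pairs with Max in the PRC1.6 complex, had 10.8, 10.1, 3.94 and 10.3 FPKM in LO F1, F2, M1 and M2, against 14.2, 6.08, 15.5 and 13.6 FPKM in HI F1, F2, M1 and M2. The groups overlapped, with M1 low among the LO libraries and F2 low among the HI libraries. The difference of -0.46 on the log2(FPKM + 1) scale (SE 0.39, 95% interval -1.33 to 0.41, limma adjusted p = 0.569) did not pass.

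**Figure D2:**
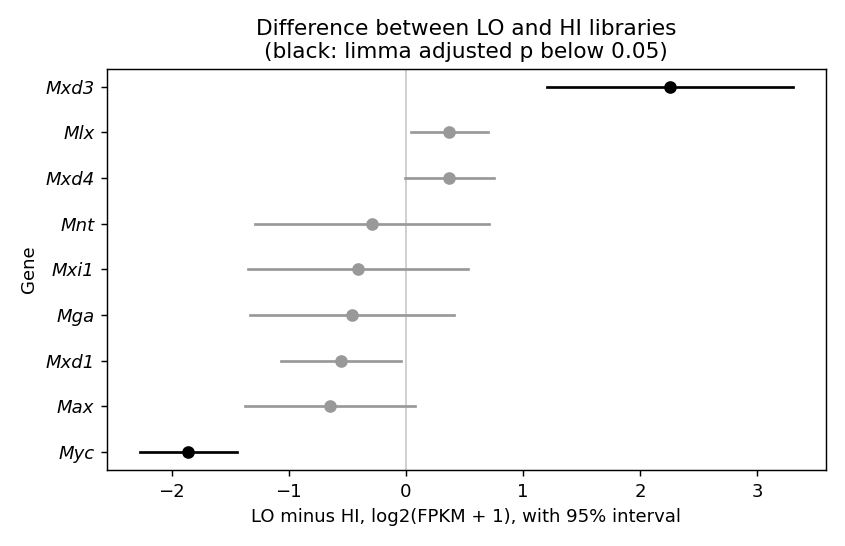
Difference of LO minus HI in log2(FPKM + 1) for the 9 network genes tested, with the 95% interval from limma as a horizontal line. The intervals of Mxd3, at 2.26, and Myc, at -1.86, lie on opposite sides of 0 and are drawn in black, as those with an adjusted p below 0.05.

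The order of the members by mean FPKM differed between the groups. In LO it was Mlx at 132 FPKM, Mxd4 at 37.1, Myc at 29.5, Mxd3 at 17.3, Max at 11.9, Mxd1 at 10.5, Mga at 8.78, Mnt at 2.27, Mxi1 at 1.21 and Mycn at 0. The libraries of neighbouring members overlapped in LO except between Mlx and Mxd4 and between Mxi1 and Mycn. In HI it was Myc at 110.1 FPKM, Mlx at 102, Mxd4 at 28.6, Max at 19.4, Mxd1 at 15.7, Mga at 12.4, Mnt at 2.76, Mxd3 at 2.62, Mxi1 at 2.05 and Mycn at 0. The libraries of neighbouring members overlapped in HI except between Mlx and Mxd4, between Mga and Mnt, and between Mxi1 and Mycn.

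Within a library, the level of Myc relative to its antagonists follows from these values and is given as a description, with no test. The FPKM of the 5 Max-binding repressors Mxd1, Mxd3, Mxd4, Mxi1 and Mnt summed to 85.0, 73.6, 56.7 and 58.4 in LO F1, F2, M1 and M2, against 45.6, 54.2, 54.6 and 52.3 in HI F1, F2, M1 and M2. All LO sums were above all HI sums, by a narrow margin in the male libraries. Myc divided by this sum was 0.303, 0.402, 0.485 and 0.602 in LO F1, F2, M1 and M2, against 2.96, 1.97, 2.05 and 1.65 in HI F1, F2, M1 and M2. Repressor RNA thus exceeded Myc RNA in every LO library, and Myc RNA exceeded repressor RNA in every HI library. The log2 of this ratio averaged -1.20 ± 0.42 in LO and 1.08 ± 0.35 in HI (SD, n = 4 each), and the difference of -2.28 is larger than either spread.

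The make-up of the repressor sum also differed. Mxd3 held 39.1%, 22.9%, 14.9% and 18.5% of it in LO F1, F2, M1 and M2, against 2.32%, 7.18%, 3.05% and 7.42% in HI F1, F2, M1 and M2. Mxd4 held the most in every library, 55.8% ± 10.9 in LO and 55.3% ± 2.74 in HI (SD, n = 4 each). Myc divided by Max was 2.64 ± 0.757 in LO and 6.02 ± 1.49 in HI, with a range of 1.87 to 3.48 in LO and 4.502 to 7.86 in HI. Mlx divided by Max was 8.67 to 19.2 in LO and 3.60 to 8.40 in HI, so that these ratios did not overlap either. RNA levels do not give protein levels, which for Myc depend on rapid degradation.

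**Figure D3:**
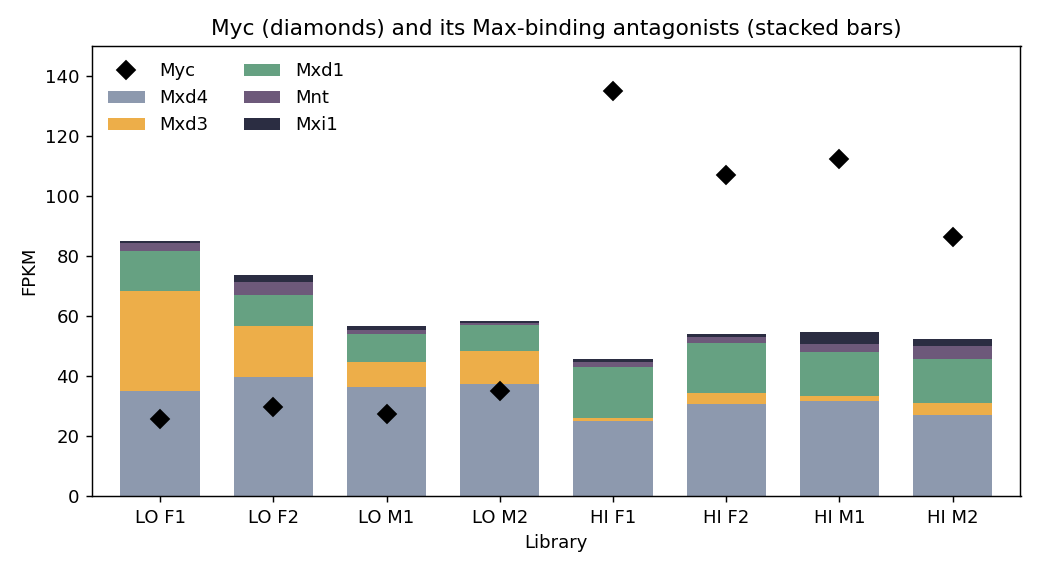
FPKM of Myc (diamonds) and of the 5 Max-binding repressors (stacked bars) in each library, with LO to the left and HI to the right. The diamond lies inside the bar in all 4 LO libraries, at 25.7 to 35.1 FPKM against sums of 56.7 to 85.0, and above it in all 4 HI libraries, at 86.4 to 135 FPKM against sums of 45.6 to 54.6.

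Sex was compared across both reporter levels, with 2 female and 2 male libraries per group. No network gene passed the test of males against females: 0 of 9 passed with limma, 0 of 9 had an unadjusted p below 0.05, and the smallest adjusted p was 0.998. Over all genes 9 passed, 0.0799% of those tested, and 429 had an unadjusted p below 0.05. For the interaction of sex and reporter level 0 of 9 passed and 1, Mnt, had an unadjusted p below 0.05. Over all genes 2 passed the interaction test, 0.0178%, and 431 had an unadjusted p below 0.05. Mxd3 averaged 25.05 FPKM in LO and 2.47 FPKM in HI females, a 10.1-fold higher mean in LO, and 9.64 FPKM in LO and 2.78 FPKM in HI males, a 3.47-fold higher mean in LO. Its interaction did not pass (-1.41 on the log2 scale, SE 0.85, limma adjusted p = 0.999). Myc averaged 27.7 FPKM in LO and 121 FPKM in HI females, and 31.3 FPKM in LO and 99.3 FPKM in HI males. Its interaction did not pass either (0.45 on the log2 scale, SE 0.40, limma adjusted p = 0.999).

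The E-box bound by Myc and Max is shown for the members that hold it near their own start, because it is the site through which the network can act on its own genes. Promoter windows of 250 bases before to 50 bases after a start site, from RefSeq on GRCm38.p6, were found for the 9 members other than Myc. The exact palindrome CACGTG, which reads the same on both strands, occurred in 7.15% of all 32851 windows of that length, counted by window. Counted by gene, which is not a like share, it occurred in windows of 4 of the 9 members. Each is printed 5′ to 3′ on the strand of the gene, with the E-box in capitals.
Mxd4, chr5:34187912-34187941, minus strand: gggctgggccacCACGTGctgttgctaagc
Mnt, chr11:74830789-74830818, plus strand: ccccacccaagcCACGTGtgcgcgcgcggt
Mlx, chr11:101087238-101087267, plus strand: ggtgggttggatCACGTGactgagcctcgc
Max, chr12:76962234-76962263, minus strand: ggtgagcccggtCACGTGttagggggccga
The E-box began 219 bases before the start site in Mxd4, 123 in Mnt, 40 in Mlx and 3 in Max, where it spans the start. None of these 4 genes passed the test of LO against HI. The core TGANTCA, shared by sites of Bach and AP-1 factors and searched on both strands, occurred in 7.81% of all windows and in 0 of the 9 members' windows, which says only that these letters are not in those windows.

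Genes around the network were described with 9 lists of 125 genes, of which 119 were tested. In LO 3 of them were higher and 10 were lower (limma adjusted p below 0.05), 10.9% of those tested, and the count is read against the background of 4.65% higher and 3.64% lower over all genes. Most calls lay in 2 lists of genes that Myc is known to induce. The number of calls was 8, 7, 7 and 8 without F2 of LO, F2 of HI, M1 of HI and M2 of HI, and 6 without the shallowest and the deepest library together.

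The 20 induced targets that act in the nucleolus and in ribosome synthesis were all tested, and 6 fell in LO, 0 rose and 14 did not pass. Their median difference was -0.69 on the log2(FPKM + 1) scale, and 0 of 20 were above 0, while the median over all genes was -0.03. Npm1, a nucleolar chaperone, had 418 ± 35.05 FPKM in LO and 935 ± 153 FPKM in HI (difference -1.15, SE 0.14, adjusted p = 0.00126). Npm1, like Hspe1 described with the metabolic targets, has processed pseudogenes between which the counting could split reads, so its level is uncertain to that extent. Rrp9, a part of the ribosomal RNA processing machinery, had 47.8 ± 11.8 FPKM in LO and 104 ± 14.4 FPKM in HI (difference -1.13, adjusted p = 0.00873). Nop58, a core protein of box C/D small nucleolar particles, had 26.7 ± 4.31 FPKM in LO and 51.5 ± 6.03 FPKM in HI (difference -0.93, adjusted p = 0.0133). Gnl3 (nucleostemin), a nucleolar GTPase, had 8.47 ± 0.467 FPKM in LO and 18.2 ± 2.52 FPKM in HI (difference -1.02, adjusted p = 0.0189). The call of Gnl3 was lost without F2 of LO, F2 of HI or M2 of HI (adjusted p = 0.0573, 0.0549 and 0.0589), with the replicate label as a block (0.0622) and without the shallowest and the deepest library together (0.0757). Without these last 2 libraries 2 of the 20 were called, and Rrp9 (adjusted p = 0.0520) and Nop58 (0.0774) also lost their calls. The calls that complete the count were Fbl (difference -0.87, adjusted p = 0.0197) and Mybbp1a (difference -1.42, adjusted p = 0.0298). That of Fbl was lost in 5 of 17 alternatives and that of Mybbp1a in 8 of 17.

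Of 24 induced targets in metabolism and growth, 23 were tested, 4 fell in LO, 1 rose and 18 did not pass. The 5 calls came down to 1 without F1 or M1 of HI, 2 without F2 or M1 of LO or F2 or M2 of HI, and 3 without M2 of LO. Their median difference was -0.43 on the log2(FPKM + 1) scale, with 6 of 23 above 0. Srm, spermidine synthase, had 36.8 ± 3.04 FPKM in LO and 86.4 ± 17.1 FPKM in HI (difference -1.19, adjusted p = 0.00301). Odc1, ornithine decarboxylase, acts upstream of Srm in polyamine synthesis and is a standard Myc target, but it was higher in LO, with 59.7 ± 11.7 FPKM in LO and 29.5 ± 8.44 FPKM in HI (difference 1.02, adjusted p = 0.0318). Its call was lost without any 1 of 6 libraries, F1, F2 or M2 of LO or F1, F2 or M1 of HI (adjusted p = 0.0563 to 0.0964). It was also lost without the shallowest and the deepest library together (0.116), with no filter (0.0508) and with eBayes without a trend (0.0508). Apex1, a DNA repair endonuclease, had 42.1 ± 19.8 FPKM in LO and 98.4 ± 10.4 FPKM in HI (difference -1.31, adjusted p = 0.0227), and its call was lost without M1 of LO or without F1, M1 or M2 of HI (adjusted p = 0.0563 to 0.0632). Hspe1, a mitochondrial chaperonin, had 67.1 ± 15.8 FPKM in LO and 117 ± 17.6 FPKM in HI (difference -0.81, adjusted p = 0.0324), and its call was lost without any 1 library other than F1 of LO (adjusted p = 0.0523 to 0.0910). It was also lost without the shallowest and the deepest library together (0.119) and with eBayes without a trend (0.0691). Aimp2, a scaffold of the aminoacyl-tRNA synthetase complex that is named because it completes the count, had 35.7 ± 9.95 FPKM in LO and 65.5 ± 5.81 FPKM in HI (difference -0.90, adjusted p = 0.0351). Its call was lost in 14 of 17 alternatives (adjusted p = 0.0514 to 0.0987 in these).

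Of 7 genes known to be repressed by Myc, 6 were tested and 1 rose in LO, with a median difference of 0.46 on the log2(FPKM + 1) scale and 4 of 6 above 0. Cdkn2c, the cell cycle inhibitor p18, had 32.4 ± 6.37 FPKM in LO and 7.38 ± 2.51 FPKM in HI (difference 2.02, SE 0.28, adjusted p = 0.00200). Cdkn1a, the inhibitor p21, had 34.7, 6.49, 15.3 and 6.62 FPKM in LO F1, F2, M1 and M2, against 10.9, 0, 3.43 and 0 FPKM in HI F1, F2, M1 and M2. The groups overlapped and it did not pass (adjusted p = 0.142). It passed without F1 of HI (adjusted p = 0.0419) and with the replicate label as a block (adjusted p = 0.0147). Ndrg2, a differentiation-linked gene, was lower in every LO library than in any HI library, which was so for 7.18% of all genes tested. It had 18.02 ± 1.71 FPKM in LO and 27.1 ± 4.46 FPKM in HI and did not pass (difference -0.55, adjusted p = 0.148). Cdkn1b, the inhibitor p27, had 29.8 ± 8.93 FPKM in LO and 21.7 ± 5.55 FPKM in HI and did not pass (difference 0.43, adjusted p = 0.422).

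**Figure D4:**
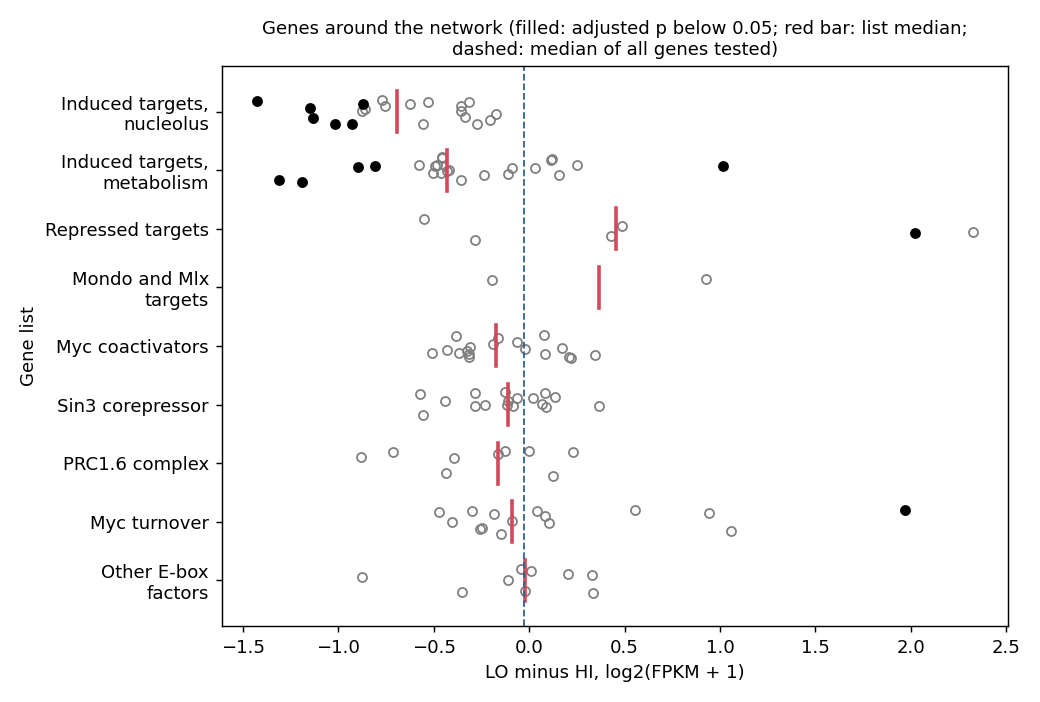
Difference of LO minus HI in log2(FPKM + 1) for each tested gene of the 9 lists, 1 row per list, with the list median as a red bar and the median of all genes tested, -0.03, as a dashed line. Filled points have an adjusted p below 0.05. All 20 nucleolar targets lie below 0, and the filled points on the right are Odc1, Cdkn2c and Aurka.

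The cofactors of the network did not pass the test in either direction. Of 18 Myc coactivators and partners, 0 passed with limma and 1 had an unadjusted p below 0.05, with a median difference of -0.17 on the log2(FPKM + 1) scale and 6 above 0. Over all 11260 genes tested, 2354 had an unadjusted p below 0.05 for LO against HI, and such counts are read against that background. Kat2a, a histone acetyltransferase, had 24.99 ± 5.11 FPKM in LO and 35.8 ± 6.14 FPKM in HI (adjusted p = 0.211). Of 17 genes of the Sin3 corepressor that Mxd and Mnt proteins recruit, 0 passed and 2 had an unadjusted p below 0.05, with a median of -0.11. These were Hdac2, with 49.8 ± 10.7 FPKM in LO and 73.2 ± 10.9 FPKM in HI (adjusted p = 0.131), and Hdac1, with 112 ± 19.1 FPKM in LO and 152 ± 14.7 FPKM in HI (adjusted p = 0.150). Both histone deacetylases were lower in every LO library than in any HI library, which was so for 7.18% of all genes tested. For Hdac2 the gap was very small, with 63.85 FPKM in LO M2 and 63.86 FPKM in HI M2. Sin3a, the scaffold of the complex, had 34.6 ± 11.2 FPKM in LO and 42.4 ± 15.2 FPKM in HI (adjusted p = 0.703). Of 10 genes of PRC1.6, the complex of Mga, 9 were tested, 0 passed and 0 had an unadjusted p below 0.05, with a median of -0.16. Rnf2, its ubiquitin ligase, had 22.7 ± 1.79 FPKM in LO and 30.3 ± 3.03 FPKM in HI (adjusted p = 0.251).

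Of 15 genes that act on Myc protein turnover, 1 rose in LO and 0 fell, with a median difference of -0.09 on the log2(FPKM + 1) scale. Aurka, a mitotic kinase that also stabilises MYC family proteins in human tumour cells, had 22.4 ± 7.73 FPKM in LO and 5.47 ± 3.88 FPKM in HI (difference 1.97, adjusted p = 0.0180). Its call was lost without F1 of LO or F2 of HI (adjusted p = 0.0528 and 0.0523) and without the shallowest and the deepest library together (0.0878). Huwe1, a ubiquitin ligase of Myc, had 26.7 ± 9.87 FPKM in LO and 13.3 ± 7.04 FPKM in HI (adjusted p = 0.187). Fbxw7, the substrate receptor of the ligase that degrades phosphorylated Myc, had 7.22 ± 3.90 FPKM in LO and 8.32 ± 3.11 FPKM in HI (adjusted p = 0.797). Of 12 other E-box factors, 9 were tested, 0 passed and 0 had an unadjusted p below 0.05, with a median of -0.02. Among them was Mlxip (MondoA), a partner of Mlx, with 8.73 ± 2.01 FPKM in LO and 8.99 ± 1.85 FPKM in HI (adjusted p = 0.955). The Mondo and Mlx targets Txnip and Arrdc4, both arrestin-related inhibitors of glucose uptake, did not pass and had unadjusted p above 0.05. Txnip had 490 ± 114 FPKM in LO and 558 ± 102 FPKM in HI (adjusted p = 0.633), and Arrdc4 had 18.7 ± 5.44 FPKM in LO and 12.2 ± 11.6 FPKM in HI (adjusted p = 0.380).

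The genes whose profile over the 8 libraries was most like that of Myc were found by the root mean square distance between mean-centred log2(FPKM + 1) values, among 7908 genes with a symbol and a mean of at least 5 FPKM. The nearest was Tcf7, the transcription factor TCF1 of naive and memory T cells, at a distance of 0.182. It had 52.9 ± 9.27 FPKM in LO and 209 ± 45.4 FPKM in HI. Next came Lta, which encodes the cytokine lymphotoxin alpha, at a distance of 0.185, with 25.8 ± 5.83 FPKM in LO and 87.9 ± 15.8 FPKM in HI. These were followed by Eno3, an enolase (0.250), Pdlim1, a cytoskeletal adaptor (0.251), Sh3bp5, an inhibitor of the kinase Btk (0.253), and Igf2r, a sorting receptor (0.259). In all 6 the LO libraries lay below the HI libraries, as for Myc, and the likeness is a description over 8 libraries that share their groups.

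**Figure D5:**
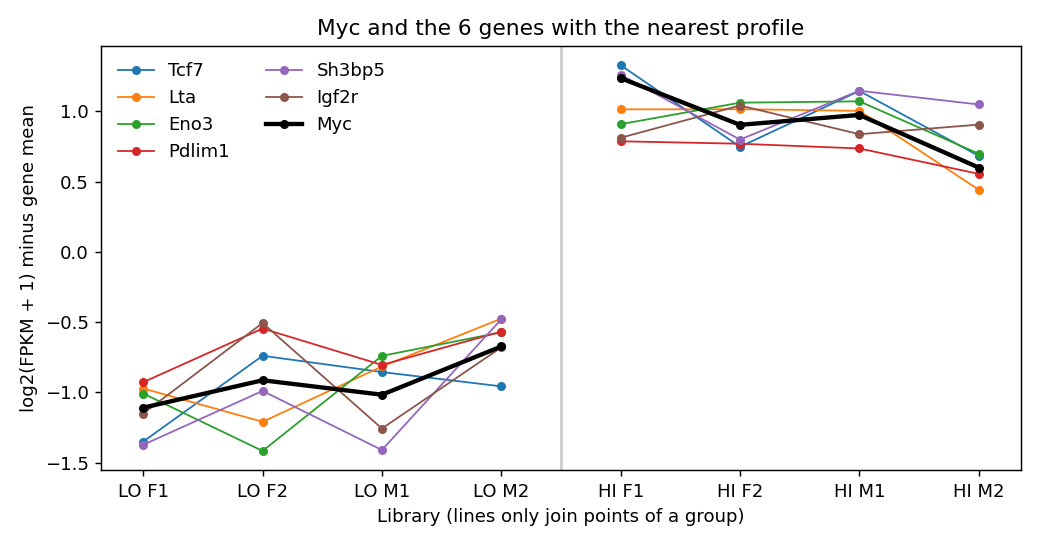
Mean-centred log2(FPKM + 1) of Myc (black) and of the 6 genes nearest to it in each library, with LO to the left and HI to the right. Lines only join libraries of a group and show no order. All 7 genes lie below 0 in the LO libraries and above 0 in the HI libraries.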

How the data were processed

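The authors deposited 1 table of FPKM values for 36811 Ensembl gene models in 8 libraries, and every value here starts from it. RNA was extracted from sorted cells and made into SmartSeq2 libraries, per the labels' protocols. The submitters' processing notes name HISAT2, cutadapt and FastQC, and as builds mm9 and NCBIM37; the table's name gives Cuffnorm. The annotation, the scaling between libraries and the strand setting are each not given in the sources used here, so reads shared with overlapping genes cannot be told apart. FPKM is not a count, and read depth is known only as a ratio.

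Symbols were matched by Ensembl ID for 31840 gene models and 10892 of the 11260 tested, from an annotation of another build, used for names and exon overlaps. Genes with at least 1 FPKM in at least 4 libraries were tested in R 4.3.3 with limma 3.58.1 on log2(FPKM + 1) (eBayes with a trend, Benjamini-Hochberg adjustment over all 11260 genes at 0.05), and the fit was tested on simulated data. The pseudocount makes changes of low genes look smaller than they are, and a fold is a ratio of 2 mean FPKM values. The test of LO against HI used all 8 libraries, and sex and its interaction in 1 model of the 4 sex and reporter groups. Libraries were grouped by their titles. The labels do not say that libraries are separate animals, so p-values measure only the spread between these libraries, which may be technical.

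The members, lists and naming rule were chosen with earlier results of these data known. All members are named, and from each list up to 4 genes with the smallest p. Fbxw7, Mlxip and Sin3a were named for their role, and Aimp2, Fbl and Mybbp1a to complete the counts of calls. Alternatives were no filter, a 5 FPKM filter, a 0.1 pseudocount, upper quartile and quantile scaling, eBayes without a trend, sex as a covariate, the replicate label as a block, leaving out each library and leaving out the shallowest and deepest library. The values of 1 marker gene are not reported here.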

Additional observations from a re-analysis of the deposited data

Results flagged for a closer look

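Among the groups of 4 libraries examined for 1 library far from the others, 4 stood out of 116 groups, and chance flags about 1 in 20. For Mga, M1 of LO had 3.94 FPKM, while the other LO libraries had 10.1 to 10.8 FPKM. For E2f6, which joins Mga in PRC1.6, F1 of HI had 129.6 FPKM, while the other HI libraries had 7.18 to 8.44 FPKM. For Mycl, the third Myc paralog, F1 of HI had 6.41 FPKM, while the other HI libraries had 0, 0.606 and 0.606 FPKM. For Lta, the gene second nearest to Myc in profile, M2 of HI had 64.2 FPKM, while the other HI libraries had 95.3 to 96.0 FPKM.

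For Mnt and Cbx3 the difference between reporter groups ran in opposite directions in females and males, with no overlap within either sex. Among other list genes, Wdr5, Tfrc and Ndrg1 did so too, with LO below HI in females and above HI in males. The pattern was not counted over all genes, and with 2 libraries of each sex per group it can arise by chance. Mnt averaged 3.55 FPKM in LO and 1.93 FPKM in HI females, and 0.989 FPKM in LO and 3.58 FPKM in HI males. The interaction, the male minus the female difference, was -1.81 on the log2(FPKM + 1) scale (limma adjusted p = 0.999), with an unadjusted p below 0.05. Cbx3, a chromatin protein of PRC1.6, had 50.6 and 50.7 FPKM in LO and 29.7 and 32.0 FPKM in HI females, and 41.1 and 23.6 FPKM in LO and 121 and 73.9 FPKM in HI males. Its interaction was -2.27 on the same scale. Neither interaction passed over all genes.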

How the results depend on the processing

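The difference of Myc kept its direction and its call under all 17 alternatives, at -1.97 to -1.75 on the log2 scale (limma adjusted p = 0.000360 to 0.00499). That of Mxd3 was 1.90 to 2.67 (adjusted p = 0.0152 to 0.0671) and lost its call without the shallowest and the deepest library together, which left 1 network gene called in place of 2. With the replicate block 2 were called. Same-labelled LO and HI libraries deviated from their group means with correlations of 0.0149 to 0.113. F1, M1 and M2 of LO correlated most with the HI library of their own label, but F2 of LO correlated more with M2 of HI (0.0583). The labels were not taken as pairs in the main test, and these small correlations do not settle whether they are. The other 7 tested members were not called under any alternative in which they were tested. Calls over the 9 lists were 13, and 6 without the shallowest and the deepest library together, 7 to 11 when 1 library was left out, and 12 with the replicate block, which added Cdkn1a (adjusted p = 0.0147) and lost Gnl3 (0.0622) and Aimp2 (0.0628). The cause was not tested. Of the 13 called list genes 10 lost their call in at least 1 alternative, while Npm1, Srm and Cdkn2c kept theirs. Of the uncalled list genes, only those with the smallest p in each list were followed through the alternatives. Reversals among the rest were not looked for. The followed differences that reversed were those of Cbx3, Mycl and E2f6. Cbx3 reversed without the shallowest and the deepest library (0.19). Mycl reversed without M2 of HI (-0.018, and up to 0.945 with 1 other library left out). E2f6 reversed without F1 of HI (0.092, and down to -1.50 with 1 other library left out). Mxi1 and Mnt were below 1 FPKM in some libraries, where few reads lie behind a value.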

Other observations

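The genes nearest to Mxd3 in profile were looked at after its values were seen, by the same distance as for Myc. They were Lamc1, a laminin chain (distance 0.352), Naprt, an enzyme of NAD synthesis (0.434), Plxdc1, a membrane protein (0.484), Cenpm, a centromere protein (0.488), Top2a, the DNA topoisomerase of dividing cells (0.499), and Lmna, nuclear lamin A/C (0.501). Top2a had 29.01 to 65.98 FPKM in LO and 5.82 to 10.3 FPKM in HI. Cenpm had 5.99 to 23.3 FPKM in LO and 1.31 to 2.81 FPKM in HI. Lmna had 37.8 to 92.0 FPKM in LO and 2.81 to 14.2 FPKM in HI. The distances were larger than those of the genes nearest to Myc, and the LO libraries were spread more widely for these genes than the HI libraries on the FPKM scale.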
